A study of Mus musculus with 2 samples.

Results

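The immediate early and Nr4a transcription factor genes described here are Fos, Fosb, Jun, Junb, Egr1, Ier2, Atf3, Nr4a1, Nr4a2 and Nr4a3. They were taken by gene symbol and are 10 of the 31253 genes counted. Cells came from infarcted mouse brain dissected on day 3 after a transient occlusion of the middle cerebral artery (tMCAO, a stroke model), and were profiled on the BD Rhapsody single-cell platform. A single library is labelled flox, and the design text calls these mice WT. The other library is labelled cKO, a conditional knockout of Hilpda, which encodes a lipid droplet protein. The sources used here do not state the Cre driver, the deleted exons, or the age, sex and number of animals in each library. The flox label does not say whether those mice carried Cre. Each group is 1 library, so nothing was tested, library and genotype cannot be told apart, and every interval below is a 95% interval that covers counting error only.

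Immediate early genes are transcribed within minutes of a stimulus from factors already present in the cell, chiefly serum response factor with its ternary complex partners and the cAMP response element-binding protein. Fos and Jun family proteins pair through leucine zippers to form AP-1, Egr1 is a zinc finger activator, and Nr4a proteins are orphan nuclear receptors whose activity follows mainly from how much is made. In brain tissue these genes respond to neuronal activity and ischaemia, and in immune cells to receptor stimulation. They are also known to be induced by enzymatic digestion of tissue at 37 °C. The tissue here was digested with collagenase at that temperature, and the part of digestion in the levels below was not tested.

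The promoters of the Nr4a family are shown because Nr4a2 and Nr4a3 differed most between the compared cell classes, with the third family member, Nr4a1, and with Fos, the member most widely used as an activity marker, beside them. Each line gives bases upstream of a transcription start, from RefSeq on GRCm38.p6, 5′ to 3′ on the gene's strand. Capitals mark TGACG on either strand (CGTCA is its reverse complement), the core of the cAMP response element. The windows are chr15:101266596-101266845 on the plus strand for Nr4a1, chr2:57124004-57124253 on the minus strand for Nr4a2, chr4:48045055-48045152 on the plus strand for Nr4a3 and chr12:85473640-85473889 on the plus strand for Fos. The RefSeq start of Nr4a1 lies downstream of the first base of the gene in GENCODE, so its window is inside the span given for the gene below.
Nr4a1: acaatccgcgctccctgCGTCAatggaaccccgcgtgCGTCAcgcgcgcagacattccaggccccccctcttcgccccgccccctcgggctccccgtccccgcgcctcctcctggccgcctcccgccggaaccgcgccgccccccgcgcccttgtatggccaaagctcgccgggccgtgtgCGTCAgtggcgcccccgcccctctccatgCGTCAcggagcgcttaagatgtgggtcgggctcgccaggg
Nr4a2: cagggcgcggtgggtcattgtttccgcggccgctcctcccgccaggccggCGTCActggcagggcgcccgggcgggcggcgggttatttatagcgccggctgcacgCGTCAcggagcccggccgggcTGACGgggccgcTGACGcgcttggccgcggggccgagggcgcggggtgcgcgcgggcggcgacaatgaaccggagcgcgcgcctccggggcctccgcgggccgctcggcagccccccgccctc
Nr4a3: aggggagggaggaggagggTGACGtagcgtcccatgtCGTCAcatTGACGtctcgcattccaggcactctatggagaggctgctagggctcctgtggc
Fos: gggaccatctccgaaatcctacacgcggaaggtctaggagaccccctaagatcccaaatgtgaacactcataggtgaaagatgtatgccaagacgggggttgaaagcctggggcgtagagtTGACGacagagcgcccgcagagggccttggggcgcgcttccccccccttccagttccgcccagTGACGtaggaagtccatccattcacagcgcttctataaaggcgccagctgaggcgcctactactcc
Nr4a1, Nr4a2 and Nr4a3 each held 4 TGACG sites in the 250 bases upstream of their RefSeq start. For Nr4a3 the 98 bases upstream of the earlier GENCODE start are printed, and they hold 3 of its 4 sites. Of 32851 promoter windows of 250 bases, 17.8% held at least 1 such site, 3.90% at least 2 and 0.137% (45 windows) 4 or more. Fos held 2, Fosb, Junb and Atf3 held 1 each, and Jun held none. None of the 8 members with a window held the full palindrome TGACGTCA (1.55% of all windows), the AP-1 site TGANTCA (6.75%), the CArG box of serum response factor (1.47%) or the Nr4a monomer site AAAGGTCA (1.34%). The Egr site GCGNGGGCG was present in Nr4a1, Nr4a2 and Fosb (4.70% of all windows). Egr1 and Ier2 had no window. Both strands were searched, and a match is a description of the letters only. Bases further upstream than 250 were not searched, so a site absent here may lie outside the window.

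The flox library kept 8061 cells with a median of 6993 UMIs, and the cKO library 6983 cells with a median of 8747 UMIs. Hilpda itself was at 273 CPM (flox) and 214 CPM (cKO) over all kept cells (17562 and 14536 UMIs), at 472 and 268 CPM in monocyte or macrophage-like cells and at 101 and 224 CPM in microglia-like cells. Without the deleted exons its counts cannot check the labels, and flox and cKO below name the libraries as labelled. The libraries shared 56 cell barcodes, 49 of them among kept cells. Clusters were named from marker genes as "-like" classes, of which 15 were found and 8 had at least 100 cells in each library. These 8 are the compared classes, and the other 7 are described by level only. No cluster met the rule for neurons. Microglia-like cells had all 9 microglia markers, at a summed 12895 and 11170 CPM. An unnamed cluster of 168 flox and 153 cKO cells with few UMIs was led by haemoglobin genes and by the microglia markers Cx3cr1, Gpr34 and P2ry12, and it was left out. The pericyte-like class also held smooth muscle markers and 6873 and 8679 CPM of the summed microglia markers, against 15612 and 9741 CPM of its own. The neutrophil-like class held 1409 and 977 CPM of monocyte or macrophage markers and 1496 and 1663 CPM of microglia markers. The endothelial cell-like class held 8077 and 10786 CPM of microglia markers against 18110 and 13774 CPM of its own. In the dendritic cell-like class the monocyte or macrophage markers, at 2539 and 2084 CPM, were as high as its own markers, at 2228 and 2068 CPM, and all 9 of its own were detected in both libraries. Monocyte or macrophage-like cells held 2119 and 1970 CPM of microglia markers, against 3079 and 3232 CPM of their own. They also held 992 and 1170 CPM of border-associated macrophage markers. The part of other cells in the results of these classes was not tested.

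The summed level of the 10 genes was highest in microglia-like, monocyte or macrophage-like and pericyte-like cells in flox, and in pericyte-like cells in cKO. Of the 15 classes it was lowest in choroid plexus epithelial cell-like cells in both libraries, with oligodendrocyte precursor-like cells next at 1225 and 711 CPM. Levels are UMIs of a gene scaled to the total UMIs of its class (CPM). Their summed level was 8271 CPM (flox) and 5696 CPM (cKO) in microglia-like cells, and 8115 and 4812 CPM in monocyte or macrophage-like cells. Pericyte-like cells had 8215 and 8483 CPM. Endothelial cell-like and oligodendrocyte-like cells were lower, with 5746 and 4266 CPM in the first and 1990 and 1861 CPM in the second. The choroid plexus epithelial cell-like class, not compared for want of cells, had 1059 and 618 CPM. Within a gene, the order of the 8 classes was much alike in both libraries. Pearson's r between the libraries of log2(CPM + 10) over the 8 classes lay between 0.82 for Jun and 0.99 for Nr4a3.

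**Figure D1:**
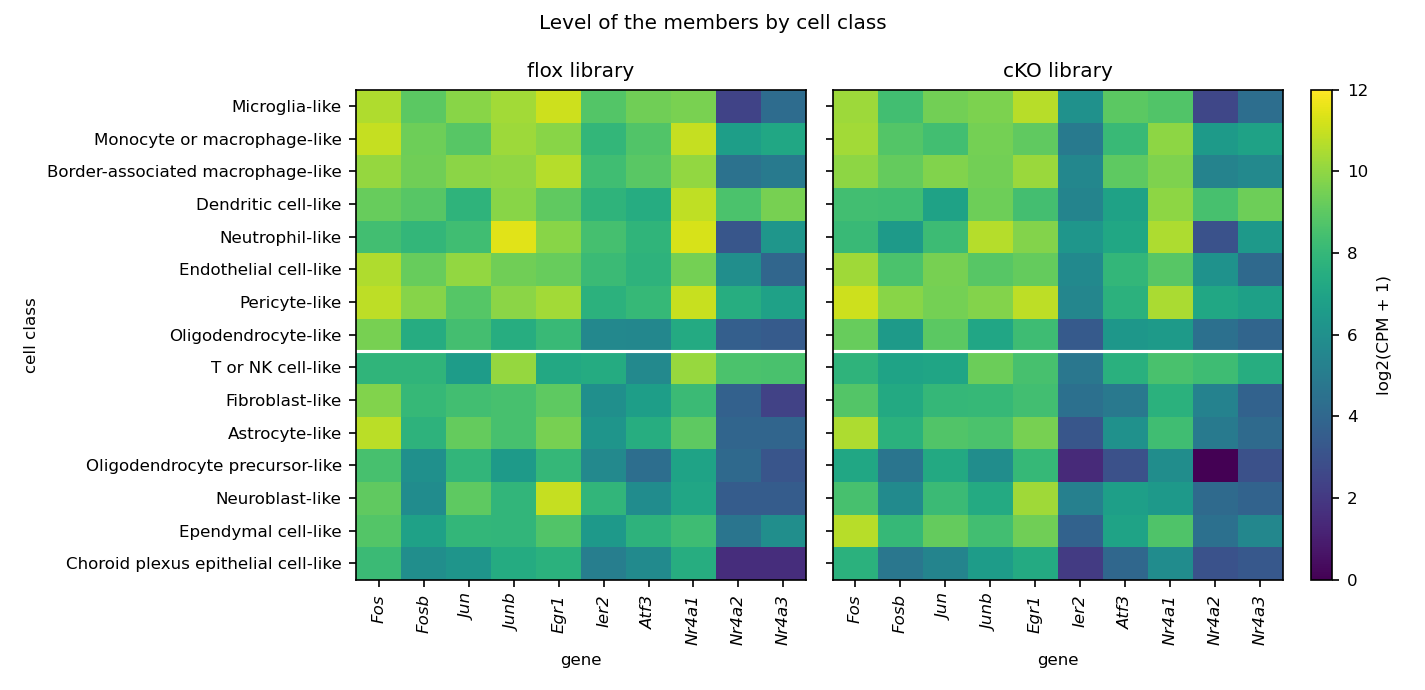
Level of each gene in each cell class of the flox (left) and cKO (right) library, as log2(CPM + 1) of the summed UMIs, with the 8 compared classes above the white line. Nr4a2 and Nr4a3 are bright in dendritic cell-like and T or NK cell-like rows, Junb in the neutrophil-like row, and the Ier2 column is darker in cKO in every compared class.

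Of 80 pairs of a gene and a compared class, 75 had at least 30 UMIs in each library, and 10 of these stood at least 2-fold above the median of the other compared classes in both libraries. Over all genes this held for 17.8% of pairs, a larger share than the 10 of 75, so these genes were not class-high more often than genes at large. The 10 pairs were Egr1 and Atf3 in microglia-like cells, Atf3 in border-associated macrophage-like cells, Junb in neutrophil-like cells, and Nr4a2 and Nr4a3 in each of the dendritic cell-like, pericyte-like and monocyte or macrophage-like classes. The share over all genes differed by class. It was 12.4% in microglia-like, 13.1% in border-associated macrophage-like, 9.58% in monocyte or macrophage-like, 15.3% in dendritic cell-like, 29.3% in pericyte-like and 38.3% in neutrophil-like cells. The pairs in pericyte-like and neutrophil-like cells thus stand against a high background. In border-associated macrophage-like cells, 1 of 10 genes was also under the share over all genes. Counting the low-depth haemoglobin-led cluster as a class left 6 pairs.

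Fos (chr12:85473890-85477273, plus strand, GRCm38) encodes the founding partner of Jun in AP-1 and was high in macrophage-like, microglia-like, pericyte-like and endothelial cell-like cells. It stood at 1968 CPM (flox) and 1284 CPM (cKO) in monocyte or macrophage-like cells (60788 and 41138 UMIs). Pericyte-like cells had 1769.7 and 2171 CPM, and endothelial cell-like cells 1531 and 1259 CPM. The first place therefore went to macrophage-like cells in flox and to pericyte-like cells in cKO. Microglia-like cells, at 1516 and 1209.9 CPM, overlapped endothelial cell-like cells in their intervals in both libraries. Fos was low in dendritic cell-like cells, at 597 and 328 CPM, and in neutrophil-like cells, at 326 and 281 CPM. Among the small classes, astrocyte-like cells had 1758 and 1478 CPM from 66 and 107 cells.

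Fosb (chr7:19302696-19310051, minus strand), a Fos paralogue that also yields the long-lived splice form ΔFosB, was highest in pericyte-like cells at 906 CPM (flox) and 939 CPM (cKO). Border-associated macrophage-like cells followed with 675 and 580 CPM. The lowest compared class was oligodendrocyte-like, with 172 and 91.8 CPM, whose intervals overlapped those of neutrophil-like cells at 244 and 92.2 CPM. Pericyte-like cells were thus high for both Fos and Fosb, whose levels over the 16 points of 8 classes and 2 libraries had r = 0.75; border-associated macrophage-like cells ranked higher for Fosb than for Fos. All 8 classes of a library share its preparation, so r is given as a description.

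Jun (chr4:95049034-95052222, minus strand), the main activating Jun protein, had another order. Endothelial cell-like, border-associated macrophage-like and microglia-like cells led in flox at 1054, 973 and 923 CPM, and their neighbouring intervals overlapped. In cKO the same 3 classes had 740, 833 and 685 CPM. Pericyte-like cells, at 457 CPM in flox, had 727 CPM in cKO and so stood above microglia-like cells there. Monocyte or macrophage-like cells had less Jun than microglia-like cells in both libraries, at 474 and 333 CPM. Dendritic cell-like cells were lowest of the compared classes, at 223 and 119 CPM. An antisense gene, Junos, overlaps Jun and had 54 and 63 UMIs in all kept cells against 41917 and 32433 for Jun.

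Junb (chr8:84974484-84978718, minus strand) encodes a Jun protein that often restrains Jun and is needed for myeloid and lymphoid differentiation. It stood out in neutrophil-like cells at 2813 CPM in flox (interval 2606 to 3033) and 1629 CPM in cKO (1510 to 1756), from 681 and 689 UMIs. Microglia-like cells came next of the compared classes in flox with 1292 CPM, and pericyte-like cells in cKO with 881 CPM. Neutrophil-like cells were thus clear of every other class in both libraries. T or NK cell-like cells had 1112 and 631 CPM. The lowest compared class was oligodendrocyte-like, with 174 and 136 CPM. The annotated span of Junb overlaps Prdx2 on the opposite strand, and since the strand setting of the counting is not given, reads of the overlap cannot be assigned with certainty.

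Egr1 (chr18:34859823-34864984, plus strand) encodes a zinc finger factor that responds to growth factor and synaptic signals and was highest in microglia-like cells in flox, at 2139 CPM. Its cKO level there was 1662 CPM, below the 1811 CPM of pericyte-like cells. Border-associated macrophage-like cells had 1597 and 1154 CPM, against 923 and 541 CPM in monocyte or macrophage-like cells. The microglia-like and border-associated classes, whose types are resident in the brain, therefore both exceeded the monocyte or macrophage-like class. Neuroblast-like cells, from 64 and 82 cells, also had high Egr1 at 1988 and 1266 CPM. Oligodendrocyte-like cells had 279 and 307 CPM.

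Atf3 (chr1:191170296-191218039, minus strand) encodes a stress-induced member of the wider AP-1 and CREB family that mostly represses. It followed Egr1 over the classes, with r = 0.81 over the 16 points. Microglia-like cells had 684 and 500.1 CPM and border-associated macrophage-like cells 490.1 and 526 CPM. Monocyte or macrophage-like cells were lower, at 429 and 275 CPM. The remaining compared classes lay between 45.6 and 264 CPM in flox and between 80.1 and 243 CPM in cKO.

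Ier2 (chr8:84661331-84662852, minus strand) encodes a short nuclear regulator named as an immediate early response protein. In flox it was highest in microglia-like cells at 438 CPM, followed by neutrophil-like cells at 347 CPM and border-associated macrophage-like cells at 322 CPM. In cKO the highest was neutrophil-like cells at 78.0 CPM, whose interval overlapped that of microglia-like cells at 65.7 CPM. Oligodendrocyte-like cells were lowest of the compared classes in both libraries, at 47.4 and 9.60 CPM. The levels of the 8 classes had r = 0.93 between the libraries, at much lower values in cKO.

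Nr4a1 (chr15:101254269-101274795, plus strand), also called Nur77, limits inflammatory gene expression in macrophages and is needed for patrolling monocytes. It was high in blood-derived cells and pericytes. Neutrophil-like cells had 2471 CPM (flox) and 1459 CPM (cKO), pericyte-like cells 2029.6 and 1446 CPM, and monocyte or macrophage-like cells 1950.0 and 985 CPM. Dendritic cell-like cells had 1863 and 1009.8 CPM. Microglia-like cells had 758 and 433 CPM, lower than monocyte or macrophage-like cells in both libraries, the reverse of Egr1, Jun and Atf3. Over the 16 points Nr4a1 ran with Junb (r = 0.89). The interval of neutrophil-like cells lay above that of pericyte-like cells in flox and overlapped it in cKO.

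Nr4a2 (chr2:57106830-57124003, minus strand), or Nurr1, is known for the upkeep of dopamine neurons. Dendritic cell-like cells, whose mixed markers are given above, had 391 CPM in flox (356 to 427) and 364 CPM in cKO (332 to 398), from 484 and 477 UMIs. T or NK cell-like cells overlapped them with 387 and 307 CPM from 47 and 35 UMIs. Microglia-like cells had only 4.36 CPM (3.54 to 5.32) and 4.92 CPM (4.01 to 5.98), although they held the second largest number of UMIs. Pericyte-like cells had 176 and 141 CPM, monocyte or macrophage-like cells 105 and 91.3 CPM, and endothelial cell-like cells 60.1 and 68.7 CPM. Neutrophil-like cells had 2 and 3 UMIs in all, so the gene was at the limit of detection there.

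Nr4a3 (chr4:48045153-48086447, plus strand), or Nor1, is known to act in dendritic cell migration. Its level in dendritic cell-like cells was 733 CPM in the flox library (687 to 783) and 661 CPM in cKO (618 to 707), from 909 and 867 UMIs. The next compared class was monocyte or macrophage-like, with 141 and 120.4 CPM, and pericyte-like cells overlapped it at 116 and 110.3 CPM. Microglia-like cells had 18.2 and 19.0 CPM and endothelial cell-like cells 14.5 and 16.1 CPM. On the scale of CPM + 10, the highest class exceeded the lowest by 37.1-fold in flox and 27.8-fold in cKO, against 5.88-fold and 7.49-fold for Fos. Nr4a3 and Nr4a2 had r = 0.76 over the 16 points, while Nr4a3 and Jun ran in opposite order (r = −0.74).

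**Figure D2:**
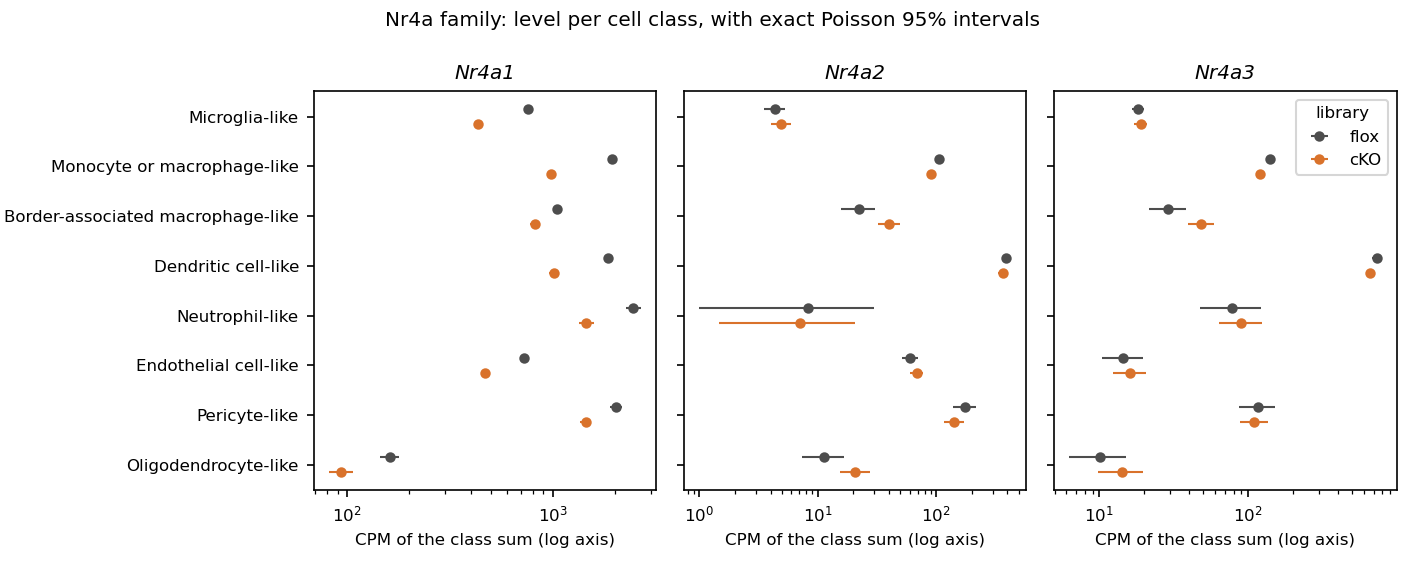
Level of Nr4a1, Nr4a2 and Nr4a3 in the 8 compared classes, in CPM on a log axis, with exact Poisson 95% intervals, for flox (grey) and cKO (orange). Dendritic cell-like cells are far to the right for Nr4a2 and Nr4a3 in both libraries. Microglia-like cells are furthest left for Nr4a2, and oligodendrocyte-like cells are furthest left for Nr4a1 and Nr4a3.

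Levels also differed between clusters of a class. The Ccr7-led dendritic cell-like cluster, of 38 flox and 40 cKO cells, had 1744 and 1257 CPM of Nr4a3, against 617 and 566 CPM in the cluster led by H2-Eb1 and H2-Aa. Ccr7 is the chemokine receptor of migratory dendritic cells. Nr4a1 had the opposite order, with 915 and 371 CPM in the Ccr7-led cluster and 1972 and 1112 CPM in the other. Among microglia-like cells, the cluster led by the homeostatic markers Siglech and P2ry12 had the most Jun, at 1398 and 1197 CPM, and the most Atf3, at 1019 and 901 CPM. Its Fos was the lowest of the 4 microglia-like clusters in both libraries, at 1229 and 1019.6 CPM. Among monocyte or macrophage-like clusters, the one led by H2-Aa and H2-Ab1 had the least Fos (889.9 and 641 CPM) and the most Nr4a3 (311 and 306 CPM).

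Endothelial cell-like cells fell into a cluster led by Spock2 and another led by Igfbp7. Fos was at 2275 and 2693 CPM in the first and at 1251 and 1124 CPM in the second, and Jun at 1865 and 1878 CPM against 749 and 634 CPM. The Spock2-led cluster held 218 of 565 flox and 84 of 540 cKO cells of the class, so its share differed between libraries. Oligodendrocyte-like cells had a small cluster of 58 flox and 51 cKO cells with Apod and Ptgds among its leading genes. Its Fos was at 2441 CPM (flox) and 904 CPM (cKO), while the large cluster had 549.95 and 562 CPM. Clusters were formed without these 10 genes, but on other genes that can vary with them, so these differences are a description.

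**Figure D3:**
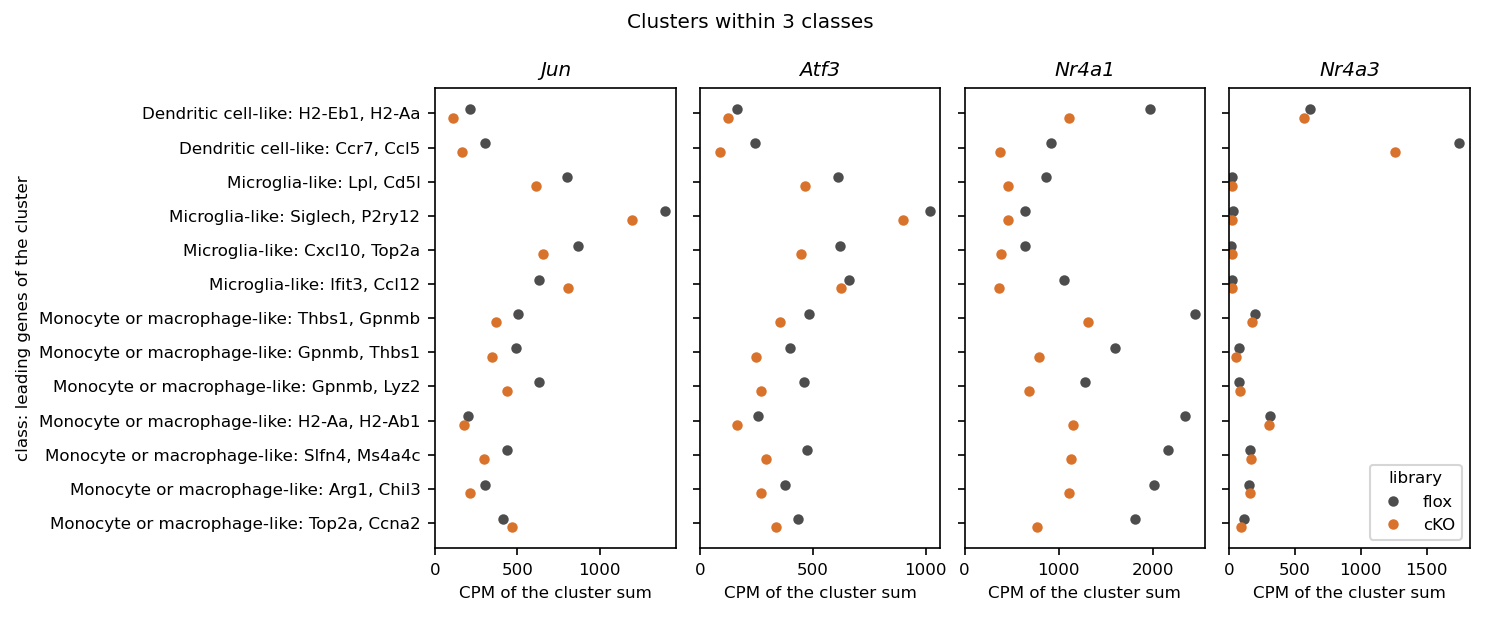
Level of Jun, Atf3, Nr4a1 and Nr4a3 in CPM for each cluster of the dendritic cell-like, microglia-like and monocyte or macrophage-like classes, labelled by its 2 leading genes, for flox (grey) and cKO (orange). The Ccr7-led cluster is highest for Nr4a3, and the Siglech-led cluster is highest for Jun and Atf3 in both libraries.

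To compare the share of cells with a UMI at 1 depth, each cell was thinned to 1000 UMIs and shallower cells were left out. Egr1 was seen in 76.1% of 2138 microglia-like flox cells (interval 74.2 to 77.9) and 68.1% of 1412 cKO cells (65.6 to 70.5). Unthinned, the shares were 97.2% and 95.1%. The choroid plexus epithelial cell-like class had the lowest Egr1 shares, with a UMI in 3 of 60 and 6 of 135 cells, at median depths of 3504 and 5427.5 UMIs against 9093 and 14321 in microglia-like cells. Most microglia-like cells thus had an Egr1 UMI, a larger share than in choroid plexus epithelial cell-like cells. Free RNA can also give UMIs, and its part in the shares of either class was not tested. Nr4a3 was seen in 44.6% and 42.0% of dendritic cell-like cells, against 2.10% and 1.63% of microglia-like and 1.38% and 1.53% of endothelial cell-like cells. Unthinned, the dendritic cell-like shares were 76.2% and 74.5% at median depths of 4288 and 5004 UMIs. Junb was seen in 91.6% of 119 and 67.1% of 234 neutrophil-like cells, after 82 and 64 shallower cells were left out.

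The number of these genes seen per cell differed between classes, and 4 pairs of genes were compared within cells. At 1000 UMIs, microglia-like cells had a mean of 4.03 of the 10 genes in flox and 3.13 in cKO, and 80.5% and 62.7% of cells had 3 or more. Choroid plexus epithelial cell-like cells had means of 0.617 and 0.319, and 63.3% and 78.5% had none. Fos was seen in 80.4% of endothelial cell-like flox cells with an Egr1 UMI and in 40.8% of those without, and in 72.8% and 46.4% in cKO. In monocyte or macrophage-like cells the shares were 75.2% and 60.7% in flox and 65.8% and 48.5% in cKO. In cKO dendritic cell-like and neutrophil-like cells Fos was seen about as often with Egr1 as without, at 24.6% against 25.5% and 18.3% against 18.5%. Over the 8 classes of both libraries, Fos was seen more often with Egr1 than without in 14 of 16 combinations of class and library, and with Jun in 16 of 16. Nr4a1 and Atf3 were each seen more often with Fos in 15 of 16, by differences that varied widely. In monocyte or macrophage-like flox cells Nr4a1 was seen in 76.6% with Fos and 74.3% without, and in microglia-like flox cells Atf3 in 48.5% and 45.0%. In border-associated macrophage-like flox cells Nr4a1 was seen less often with Fos, at 47.4% against 53.6%. In the cKO cells of that class Nr4a1 was seen more often with Fos, at 55.3% against 36.0%. These shares come from cells of 1 library each and carry no test. The same counts were not made for other pairs of genes, so they do not show a trait particular to these genes. Clusters of a class also differed in these genes, as given above.

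The comparison of the library labelled cKO with the one labelled flox asked how these genes differed with the conditional Hilpda genotype. A difference was called where it was at least 2-fold, with at least 30 UMIs in the library with the higher level and an interval that excluded equal levels. Of 80 pairs, 79 had enough UMIs (Nr4a2 in neutrophil-like cells did not), and 9 were lower in cKO and none was higher. Over all genes and compared classes, 5.24% of pairs were lower and 1.06% higher, and by class the lower share ran from 3.17% in neutrophil-like to 6.52% in endothelial cell-like cells. Ier2 made up 8 of the 9 lower pairs, 1 in each compared class, and Fosb in neutrophil-like cells was the other. In all, 61 of the 79 ratios were below 0, against 51.0% of all pairs.

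The difference in Ier2 was the largest of the 10 genes in every compared class. It went from 248 CPM in flox to 30.3 CPM in cKO in monocyte or macrophage-like cells (7650 and 970 UMIs), a log2 ratio of −3.03 (−3.13 to −2.94). In microglia-like cells the levels were 438 and 65.7 CPM (9752 and 1348 UMIs, −2.74, −2.82 to −2.66). The smallest difference was in neutrophil-like cells, with 347 and 78.0 CPM (84 and 33 UMIs, −2.15, −2.78 to −1.56). No class stood near equal levels, and the median of the 8 ratios was −2.48. The share of cells with an Ier2 UMI at 1000 UMIs was 31.6% and 5.67% in microglia-like cells and 19.0% and 2.73% in monocyte or macrophage-like cells.

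**Figure D4:**
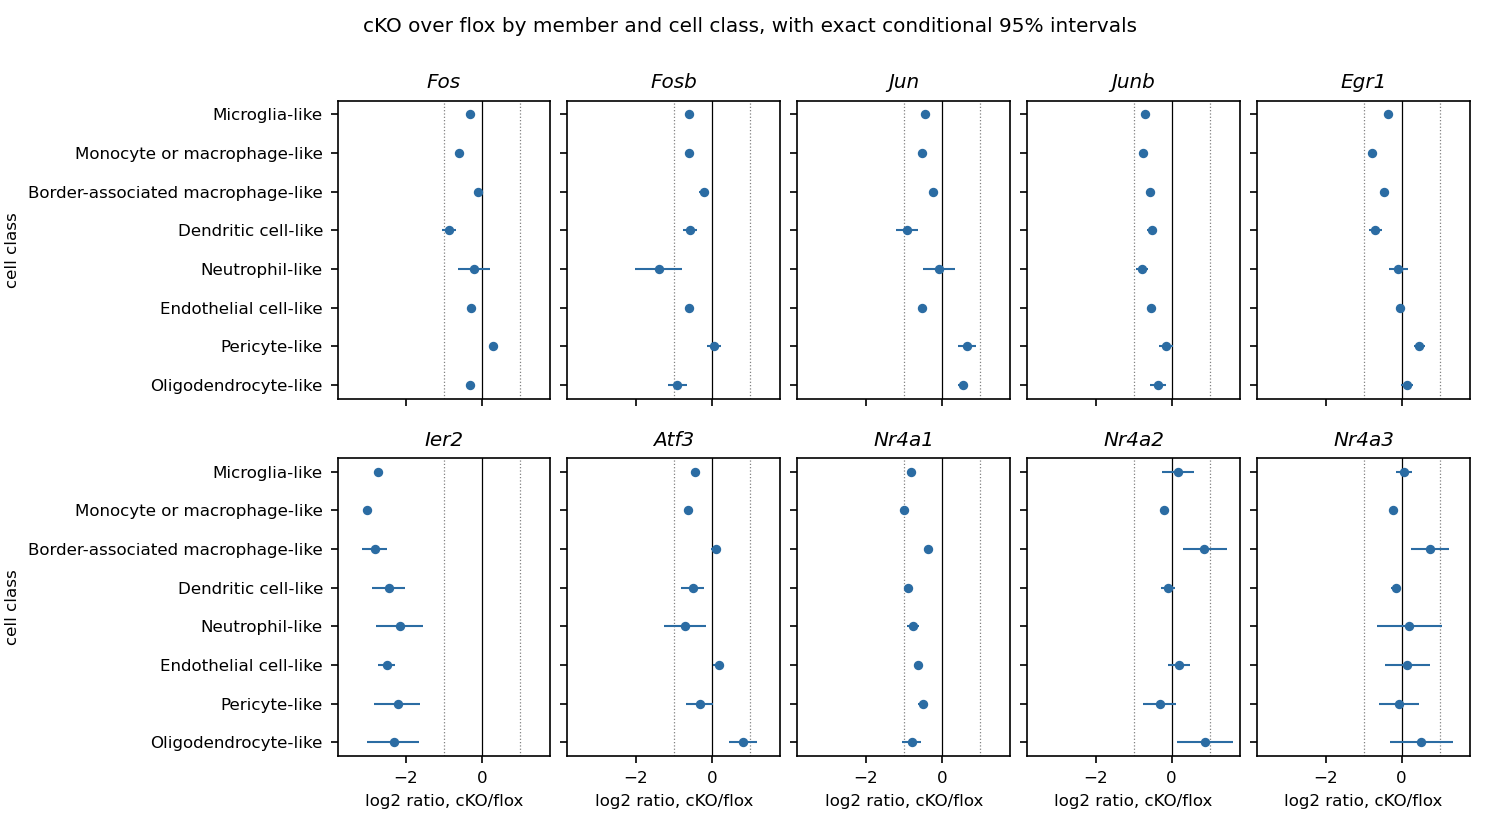
Log2 ratio of cKO over flox for each gene in each compared class with enough UMIs, with exact conditional 95% intervals; the solid line marks equal levels and the dotted lines a 2-fold difference. Ier2 lies between −3.03 and −2.15 in all 8 classes, and every other ratio except that of Fosb in neutrophil-like cells lies within 2-fold.

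In the 8 compared classes, the other 9 genes differed by less than 2-fold in every tested pair but 1. Fosb in neutrophil-like cells was at 244 CPM (flox) and 92.2 CPM (cKO), a log2 ratio of −1.40 (−2.02 to −0.79) from 59 and 39 UMIs. In monocyte or macrophage-like cells all 9 lay below 0, from Nr4a1 at −0.99 (−1.01 to −0.97) through Egr1 (−0.77), Junb (−0.76), Atf3 (−0.64), Fos (−0.62), Fosb (−0.60) and Jun (−0.51) to Nr4a3 (−0.23) and Nr4a2 (−0.21). The median of the 10 genes there was −0.63, against 0.01 over all genes tested. Nr4a1 and Junb were below 0 in each of the 8 classes, with medians of −0.77 and −0.57. Nr4a2 and Nr4a3 stayed near equal levels in dendritic cell-like cells, at −0.10 (−0.29 to 0.08) and −0.15 (−0.29 to −0.01). Both had higher values in cKO, within 2-fold and from few UMIs, in border-associated macrophage-like cells (0.86 and 0.74) and oligodendrocyte-like cells (0.87 and 0.50). For Nr4a3 in oligodendrocyte-like cells, from 22 and 34 UMIs, the intervals of the levels overlapped (6.29 to 15.2 CPM in flox and 9.82 to 19.8 CPM in cKO). Nr4a2 was below 0 in 3 of 7 tested classes and Nr4a3 in 3 of 8.

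In the classes with too few cells to compare, some levels differed by more than 2-fold. Fos was at 441 and 1680 CPM in ependymal cell-like cells (109 and 402 UMIs from 40 and 30 cells) and at 368 and 140.5 CPM in oligodendrocyte precursor-like cells. Nr4a1 was at 1137 and 377 CPM in T or NK cell-like cells, from 138 and 43 UMIs.

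The medians of the 10 genes were −0.44 in microglia-like, −0.63 in dendritic cell-like, −0.70 in neutrophil-like (9 genes tested) and −0.40 in endothelial cell-like cells. Over all genes tested the medians in these classes were −0.04, −0.03, 0.14 and −0.09. The microglia-like and endothelial values mix clusters whose shares differed between the libraries. The Siglech-led microglia-like cluster held 758 of 2149 flox and 299 of 1424 cKO cells. Microglia-like Jun, at −0.43 in the class, was at −0.22 in that cluster and between −0.41 and 0.36 over the clusters of the class. Endothelial cell-like Jun, at −0.51 in the class, was at 0.01 (−0.13 to 0.15) in the Spock2-led and −0.24 (−0.34 to −0.15) in the Igfbp7-led cluster. Endothelial cell-like Fos, at −0.28, was at 0.24 and −0.15. Ier2 was at −2.10 and −2.35 in these clusters. In border-associated macrophage-like, pericyte-like and oligodendrocyte-like cells the medians of the 10 genes were nearer to 0, at −0.22, −0.11 and −0.09, with 0.00, 0.11 and 0.00 over all genes. Pericyte-like cells had higher values in cKO for Jun (457 and 727 CPM, 0.67, 0.44 to 0.90), Egr1 (0.46) and Fos (0.30), none past 2-fold. In oligodendrocyte-like cells Atf3 was at 45.6 and 80.1 CPM (0.81, 0.46 to 1.18) and Jun at 343 and 508 CPM (0.57, 0.43 to 0.70). The Fos ratio of −0.31 in that class joined −1.43 (−1.66 to −1.21) in the Apod cluster and 0.03 (−0.09 to 0.15) in the large cluster.

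Many genes rich in G and C at the 3′ end were lower in the cKO library, and Ier2 is among the genes with high 3′ GC. The last 500 bases of its transcript are 55.2% GC, at the 92.3rd percentile of genes with a value. In monocyte or macrophage-like cells the tenth of genes with the most 3′ GC (54.2% and over, 1169 genes) had a median log2 ratio of −0.40, and 31.2% of them were at least 2-fold lower in cKO, against 5.35% of all genes. Set against the median of its GC bin, Ier2 was still at −2.63 in that class and between −2.63 and −1.94 over the 8 classes. Of 1097 genes within 2 percentage points of its GC, 9 (0.820%) were as low or lower in monocyte or macrophage-like cells, and over the 8 classes this share ran from 0.562% in neutrophil-like to 3.67% in pericyte-like cells. Junb has the next highest 3′ GC of the 10 genes, 53.6%. In monocyte or macrophage-like cells the median of its bin was 0.01, with 8.72% of genes at least 2-fold lower, and Junb minus that median was −0.78. The share of genes of like GC as low or lower was 15.4% for Junb in that class and 6.12% to 31.4% over the 8. For Nr4a1 it was 1.69% there and at most 11.5%, in border-associated macrophage-like cells. For Egr1 it was 1.43% there, 11.4% in microglia-like and 57.0% in endothelial cell-like cells, and for Fos 2.44%, 14.3% and 34.3%. Egr1 and Fos were thus not low among genes of like GC in endothelial cell-like cells. The part of 3′ GC in the Ier2 ratio was not tested further, and library preparation and genotype cannot be told apart.

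**Figure D5:**
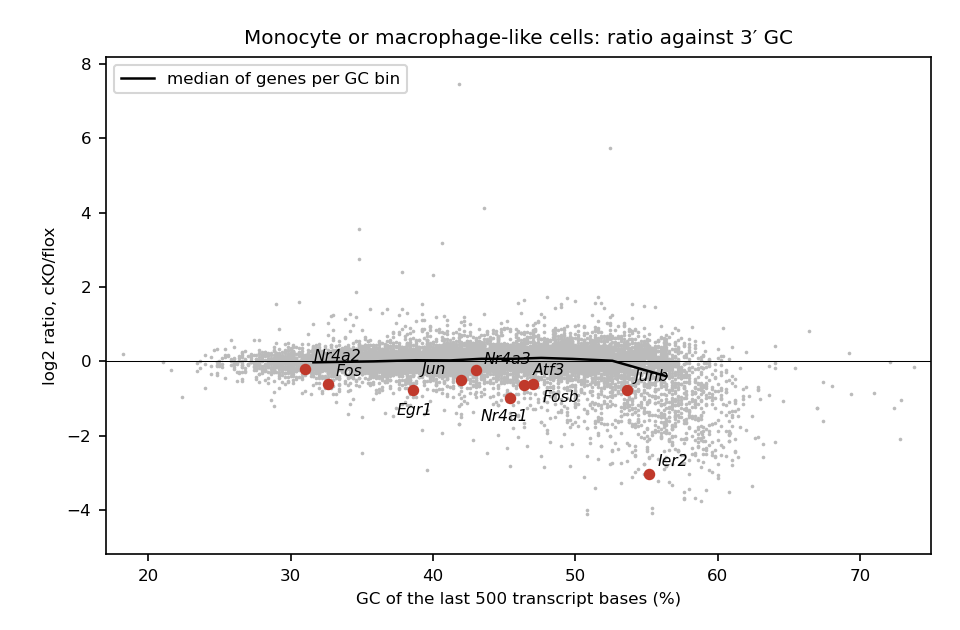
Log2 ratio of cKO over flox against the GC content (%) of the last 500 transcript bases in monocyte or macrophage-like cells; grey points are genes, the line joins the medians of 10 GC bins and red points are the 10 genes described. The line falls to −0.40 in the highest bin, and Ier2 lies at −3.03, far under it.

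Other immediate early genes gave a mixed picture. Of a wider list of 47 immediate early genes, 46 were in the files. They gave 318 gene and class pairs with enough UMIs, of which 20 (6.29%) were lower and 10 (3.14%) higher in cKO, against 5.24% and 1.06% of all pairs, so the lower share is near the background. Gadd45b and Gadd45g, stress sensors, and Ier5l were lower in at least 4 classes each. Gadd45b was at 134 and 48.2 CPM in monocyte or macrophage-like cells (4155 and 1545 UMIs, −1.48, −1.57 to −1.40) and was lower in 7 of 8 classes. Their 3′ GC was 58.8%, 60.8% and 49.0%. Of the 10 higher pairs, 5 were in endothelial cell-like (of 42 tested) and 3 in pericyte-like cells (of 35). Of all genes tested in these classes, 0.827% and 3.82% were higher.

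Upstream factors and kinases gave 22 lower (15.9%) and no higher pairs of 138, against 5.24% and 1.06% of all pairs. Srf, the serum response factor that drives Fos and Egr1, was at 18.7 and 5.07 CPM in microglia-like cells (416 and 104 UMIs, −1.88, −2.21 to −1.57) and was lower in 4 of 5 classes. Its coactivator Mrtfa was lower in 4 of 4, the kinase Mapk3 (ERK1) in 7 of 7 and its activator Map2k2 in 6 of 6. The 3′ GC of these 4 genes lay between 54.2% and 56.4%, in the highest bin, where 17.0% (neutrophil-like) to 33.4% (microglia-like) of all genes were at least 2-fold lower. Partners and repressors of these factors gave 12 lower and no higher pairs of 80, among them Rxrb, a nuclear receptor partner of Nr4a1 and Nr4a2, lower in 6 of 6 classes at a 3′ GC of 55.2%. The median ratio of the upstream list was −0.18 in microglia-like and −0.08 in monocyte or macrophage-like cells, with 4 of 21 genes lower in each class.

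Heat shock genes, which also respond to tissue handling, had no pair past the size rule in either direction of 69. Of all pairs, 5.24% were lower and 1.06% higher. Hspa1a was at 72.7 and 49.6 CPM in microglia-like cells, 42.6 and 33.5 CPM in monocyte or macrophage-like cells, 108 and 58.7 CPM in endothelial cell-like cells and 102 and 166 CPM in oligodendrocyte-like cells. Hspa1b was at 91.3 and 47.2 CPM in endothelial cell-like and 79.8 and 146 CPM in oligodendrocyte-like cells. Both were thus lower in cKO in endothelial cell-like and higher in oligodendrocyte-like cells, within 2-fold.

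By level over the 16 points, among 7189 genes, those most like Nr4a3 were H2-Aa (r = 0.92), Cd74 (0.92), H2-Eb1 (0.91), H2-Ab1 (0.91) and Itga4 (0.89). For Nr4a1 they were Oasl2 (0.93), Coq10b (0.90), Mef2d (0.89), Rbms1 (0.89) and Il13ra1 (0.88). For Fos they were Naa20 (0.91), Fundc2 (0.90), Lman1 (0.89), Sdc3 (0.88) and Atp5j2 (0.88). The MHC class II genes beside Nr4a3 are highest in dendritic cells, and the points share libraries and depth, so these values describe likeness of level only.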

How the data were processed

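Per the labels, cells were collected after collagenase digestion and libraries were made with the BD Rhapsody system. The submitters' processing notes name CASAVA 1.8, STARsolo, Seurat and the build mm10; the sources used here do not state the annotation, the strand setting or the cell caller. The authors deposited whole-number UMI counts for each gene and barcode, without normalization. The flox library had 8593 barcodes and 67864602 UMIs, and the cKO library 7382 barcodes and 70665440 UMIs.

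Cells with at least 500 UMIs, 200 genes and at most 25% mitochondrial UMIs were kept, and 214 flox and 143 cKO Scrublet doublets (expected rate 6%, scanpy 1.11.5) were left out. The 2000 most variable genes, without the 10 genes described, Hilpda and sex-linked, mitochondrial, ribosomal and haemoglobin genes, gave 30 principal components, a graph of 20 neighbours and 29 Leiden clusters at resolution 1 (leidenalg 0.10.2). A cluster of at least 50 cells was named from at least 3 markers at 20 CPM and 2-fold over the mean of the other clusters, which named 27. The naming thresholds, and the rule that leaves a low-depth cluster with leading markers of a second class unnamed, were set after the clusters and earlier ratios had been seen. Cells in unnamed clusters were 2.47% of flox and 2.45% of cKO.

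UMIs were summed per class and library. CPM have exact Poisson intervals, log2 ratios exact conditional intervals and shares exact Clopper-Pearson intervals, all at 95% and for counting error only. PCR and cells are not replicates. Correlations used log2(CPM + 10). The ratio and size rule were tried on simulated Poisson counts with planted changes of known size. These held no other variation between libraries, so the simulation cannot show how the rule behaves under such variation. Gene positions and 3′ GC came from GENCODE on GRCm38 for 31107 of 31253 genes, and RefSeq gave promoters for 8 of the 10 genes. The members and gene lists were chosen with earlier results of these data known. From each list the genes past the size rule in at least 4 classes are named, with Srf, Hspa1a, Hspa1b and the 5 genes most like Fos, Nr4a1 and Nr4a3 among those with at least 30 UMIs in at least 4 classes of each library; the clusters described within classes were chosen after their values were seen. Alternatives covered scaling (TMM, edgeR 4.0.16), UMI minimums, filters, doublets, resolution, cell weighting, one-by-one gating, clustering genes, class-relative and GC-relative ratios and thinning.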

Additional observations from a re-analysis of the deposited data

Results flagged for a closer look

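In 2 cases the ratio of cKO over flox pointed in opposite directions in different classes. Each ratio was at least 1.5-fold in its own direction, with an interval that excluded equal levels. With 1 library per group the difference was not tested. For Jun, the log2 ratio in pericyte-like cells (0.67) minus that in dendritic cell-like cells (−0.91) was 1.58. For Atf3, the log2 ratio in oligodendrocyte-like cells (0.81) minus that in neutrophil-like cells (−0.70) was 1.52.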

How the results depend on the processing

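The lower pairs numbered 9 as reported and between 6 (minimum of 100 UMIs) and 10 under the alternatives for which pairs were counted, which leave out the class-relative and GC-relative ratios. The higher pairs numbered 0 as reported and 1 with doublets kept (Nr4a2 in oligodendrocyte-like cells, 1.09). With equal weight per cell they numbered 3. These were Nr4a2 in oligodendrocyte-like (1.88) and border-associated macrophage-like cells (1.64) and Jun in oligodendrocyte-like cells (1.08). With the unnamed low-depth cluster as a class, an alternative chosen after seeing the data, there was 1 higher pair (Nr4a1, 1.56). The higher pairs were 0 under the other settings. The pairs at least 2-fold above the median of the other classes numbered 10 as reported, 6 with that cluster as a class, and between 7 and 14 otherwise; the settings of 10% mitochondrial UMIs, resolution 2 and one-by-one gating compared only 7, 7 and 6 classes. With TMM scaling Nr4a1 in monocyte or macrophage-like cells just passed the size rule as lower, and after subtraction of its GC bin's median it was at −1.05. Fosb in oligodendrocyte-like cells passed as lower at resolution 2 (−1.12) and with one-by-one gating (−1.10), and Jun in dendritic cell-like cells at resolution 2 (−1.03). Ier2 kept a ratio of −1.63 or lower in each compared class under every setting except the ratio relative to the other classes. On that scale, which removes what the classes share by construction, no Ier2 pair was 2-fold lower: it lay at 0.35 in neutrophil-like, 0.29 in pericyte-like, 0.20 in oligodendrocyte-like and 0.051 in dendritic cell-like cells and at −0.58 at the lowest. After subtraction of its GC bin's median, Ier2 was between −2.63 and −1.94. The cause of the other changes was not tested. No paired analysis was possible because each group is 1 library, and for the same reason no replicate could be left out. Depth limits Nr4a2 and Ier2 in the smaller classes, and 34 flox fibroblast-like cells allow no firm level.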
